A study of Mus musculus with 19 samples.

Results

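In C2C12 cells, a mouse myoblast line, 141 protein-coding genes were close to silent after 6 h of vehicle and were read at a clear level after 6 h of thapsigargin. They were chosen by their mean levels in the 6 h libraries alone, as counts scaled to a common library total (CPM, the share of a gene in the summed gene counts of its library, times 1000000). Of 55401 gene identifiers counted, 21897 were protein-coding in the GENCODE annotation, and 10128 of these averaged under 0.5 CPM over the 3 vehicle libraries at 6 h. A mean of at least 2 CPM over the 3 thapsigargin libraries at 6 h was reached by 155 of them (1.53%), of which 14 were left out by symbol (among the symbols set aside are those of histone, Usp17 and collagen genes), leaving the 141. The members just inside the upper limit were Arrdc4 and Ifit3, both at 2.03 CPM, and Fcgr1 at 2.05 CPM. Ttll6 at 1.99 CPM, Kcnc4 at 1.99 CPM and Serpinb1b at 1.94 CPM fell just outside it. At the vehicle limit, Gpa33 at 0.496 CPM, Neurl3 at 0.485 CPM and Chrnb2 at 0.475 CPM were inside, and Ndufa4l2 at 0.501 CPM, Dennd2d at 0.505 CPM and Maats1 at 0.505 CPM outside.

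The cells were of the genotype WT in every group and fell into 7 groups of polyadenylated RNA libraries. Thapsigargin at 100 nM was given for 2 h (3 libraries), 6 h (3 libraries) or 12 h (2 libraries), and each time had a DMSO group of the same size. In a recovery group of 3 libraries, 6 h of 100 nM thapsigargin were followed by 48 h in medium without it. No vehicle group was kept for the 6 h plus 48 h of the recovery group, so effects of drug withdrawal and of longer culture cannot be told apart. Whether the replicates came from separate cultures is not stated. The p-values therefore reflect the scatter among these libraries, which may be only technical. Because the 6 h libraries chose the genes, values at 6 h are given below as a description, and tests use the 13 libraries of the other groups as contrasts.

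Thapsigargin blocks SERCA, the pump that loads calcium into the endoplasmic reticulum (ER). Loss of ER calcium disturbs protein folding and activates the unfolded protein response, whose sensor PERK also starts the integrated stress response, the programme run by the transcription factors ATF4 and CHOP. That response is known for genes of amino acid supply and redox balance, many of which cells already express at some level. Several of the genes described here are known from other tissues, such as Car6 from saliva, Sspo from the brain and H2-M10.1 from the vomeronasal organ. In bulk RNA, a gene read in few cells at a high level and one read in many cells at a low level cannot be told apart.

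Libraries held 17305962 to 40964140 gene counts. Replicate 3 of DMSO at 2 h and replicate 1 of recovery stood apart, with 15.8% and 14.9% of counts from mitochondrial genes, against 1.41% to 3.07% in the other 17. Markers of the labelled cell type were read in every group: the 10 myoblast genes summed to 1219 to 5133 CPM and none was at 0. Most of the sum was Des and Itga7. Myod1 averaged 208 CPM in DMSO at 2 h, and 16.2 CPM in DMSO and 5.70 CPM in thapsigargin at 12 h. Myf5 averaged 37.5 CPM in DMSO at 2 h, and 31.9 CPM in DMSO and 246 CPM in thapsigargin at 12 h. Pax7 and Fgfr4 were at 0.247 CPM or less in both 12 h groups. The libraries also differed in the balance of long and short transcripts: the mean log2 level of genes with transcripts of 4420 bases or more, minus that of genes with 2779 or less, was -1.04 to -0.06 in thapsigargin and -1.21 to -0.59 in DMSO at 6 h, and -1.33 to -0.12 in recovery. It was 0.79 to 0.89 in thapsigargin and 0.56 to 0.98 in DMSO at 2 h, and 0.40 to 0.53 in thapsigargin and 0.57 in DMSO at 12 h. All 6 h and recovery libraries thus lay below those of 2 h and 12 h. Of an integrated stress response list of 18 genes, 13 were higher under thapsigargin than DMSO at 2 h and 13 at 12 h (edgeR, adjusted p under 0.05). Of all genes, 3.01% and 6.29% were. In recovery, 10 were lower than in thapsigargin at 12 h, where 23.1% of all genes were. Against DMSO at 2 h, 13 were higher and 1 lower in recovery, where 25.8% and 22.3% of all genes were. The list summed to 8823 to 12080 CPM in thapsigargin and 2617 to 2908 CPM in DMSO at 6 h, where DMSO at 2 h had 811.5 to 1502 CPM. Recovery, at 2331 to 3325 CPM, spanned the range of DMSO at 6 h. It lay above DMSO at 2 h and at 12 h (1662 to 1783 CPM). Ddit3, which encodes CHOP, averaged 151 CPM in thapsigargin and 6.43 CPM in DMSO at 2 h, and 262 CPM in thapsigargin and 16.2 CPM in DMSO at 12 h.

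**Figure D1:**
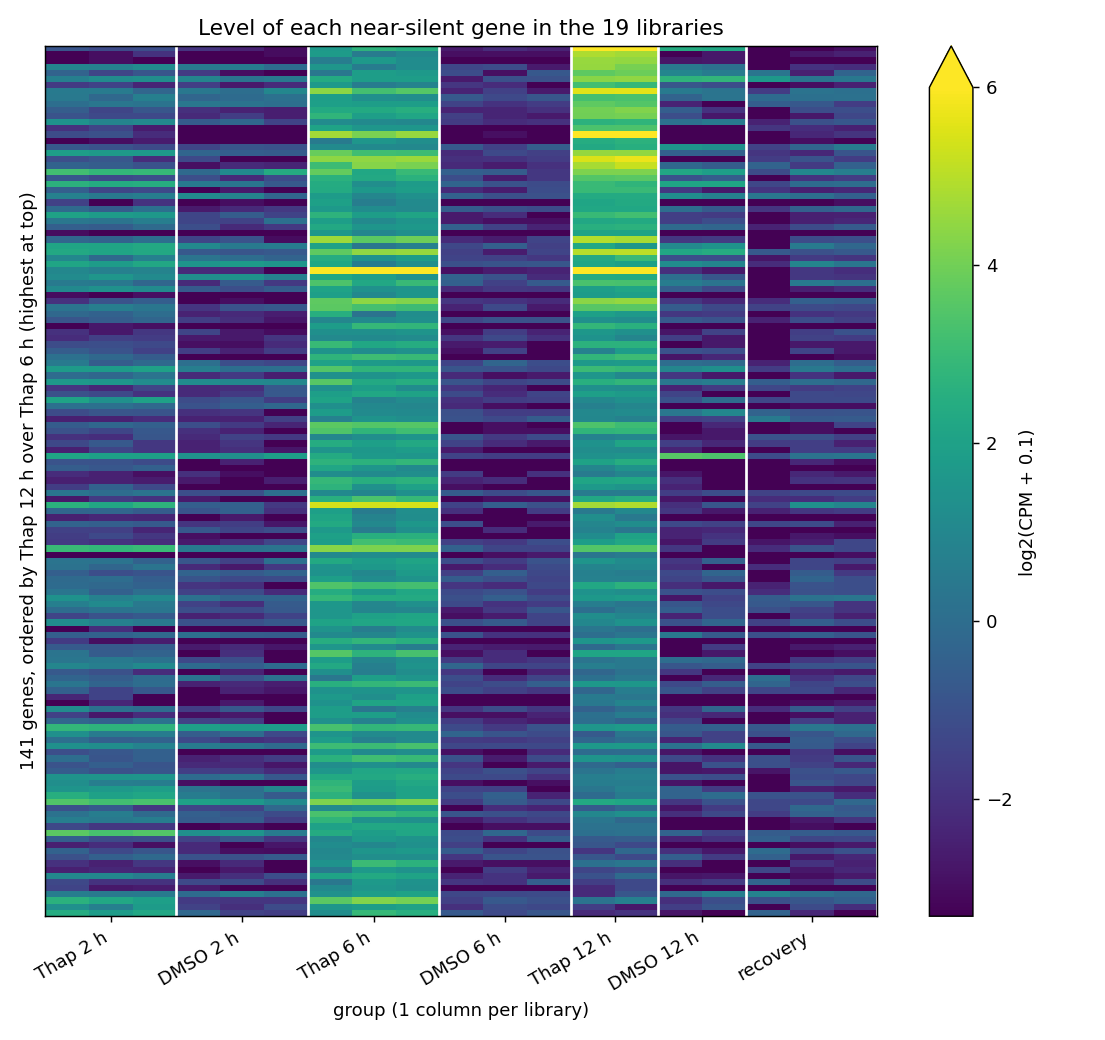
log2(CPM + 0.1) of the 141 genes (rows, ordered by thapsigargin at 12 h over 6 h) in each of the 19 libraries (columns), each thapsigargin group left of its DMSO group and recovery last. Dark is low: the DMSO and recovery columns are dark for most genes, the 6 h thapsigargin columns are lit because they chose the set, and the 2 h and 12 h thapsigargin columns are lit in part.

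Within the 6 h thapsigargin libraries that chose them, the 141 genes had a median of 3.42 CPM and ranged between 2.03 and 129 CPM, against a median of 0.173 CPM in DMSO at 6 h, where 18 of them had no count at all. The summed level of the set was 901, 836 and 873 CPM in the thapsigargin libraries and 30.3, 27.1 and 26.4 CPM in the DMSO libraries. In the vehicle groups that the choice did not use, the genes were low but not all silent. In DMSO, 37 of the 141 reached 0.5 CPM at 2 h and 35 did so at 12 h, 8 and 10 of them reached 2 CPM, and 92 stayed under 0.5 CPM in all 3 DMSO groups. No count was found in any of the 8 DMSO libraries for 9 genes.

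After 2 h of thapsigargin, 28 of the 141 genes averaged 2 CPM or more, against 8 in DMSO at 2 h. After 12 h, 88 did so in thapsigargin and 10 in DMSO. Per library the counts were 31, 26 and 28 in thapsigargin and 9, 7 and 5 in DMSO at 2 h, and 82 and 85 in thapsigargin and 10 and 9 in DMSO at 12 h. The replicates of a group thus lay far closer to each other than to the other treatment. In recovery, 1, 1 and 0 genes reached 2 CPM.

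**Figure D2:**
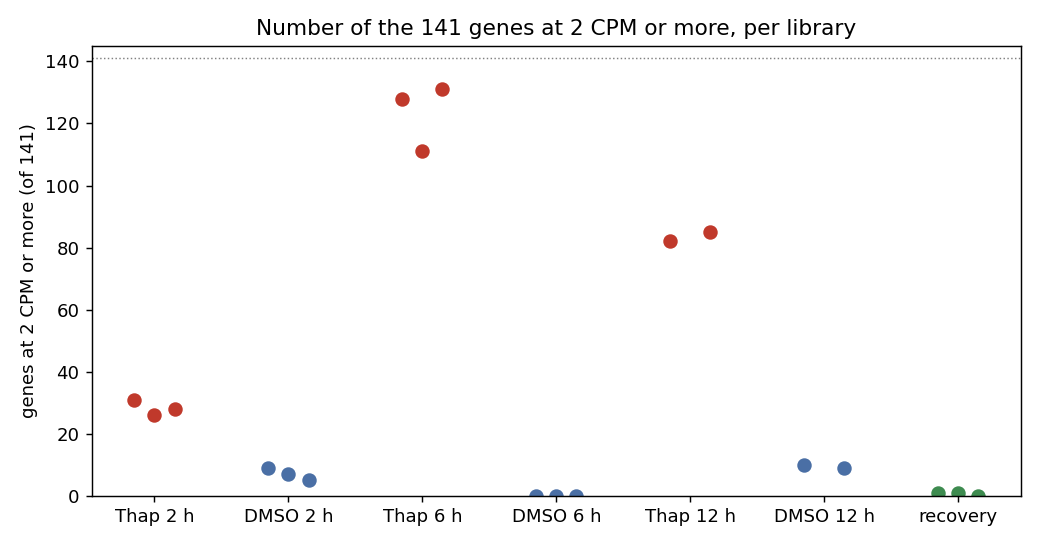
Number of the 141 genes at 2 CPM or more (vertical axis) in each of the 19 libraries, 1 point per library, by group. The 6 h points are fixed by the choice of genes; thapsigargin libraries lie at 26 to 31 at 2 h and 82 to 85 at 12 h, above the DMSO libraries of the same time.

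By edgeR's quasi-likelihood test, 99 of the 141 genes rose in thapsigargin against DMSO at 12 h and 1, Hlf, fell, where 6.29% of the 18039 genes tested rose and 6.77% fell. The other 41 did not pass. Both thapsigargin libraries lay above both DMSO libraries for 134 of the 141, where 37.7% of all genes show this, and for 35 of the 42 that were not called higher. The median log2 difference at 12 h was 3.92 over the members and 0.01 over all genes. At 2 h, 43 members rose and 0 fell, against 3.01% and 1.51% of all genes, and 98 did not pass; with an unadjusted p under 0.05, 0 were lower by edgeR and 1 by DESeq2, which called 0 lower. Every thapsigargin library was above every DMSO library for 90 members, against 30.4% of all genes. The median log2 difference was 1.69 over the members and -0.04 over all genes at 2 h, and 81 members had an unadjusted p under 0.05. The 2 h count was 26 without replicate 1 of thapsigargin at 2 h and 67 by DESeq2.

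The 2 h and 12 h comparisons share no library. Of the 43 members that rose at 2 h, 37 (86.1%) also rose at 12 h, and these were 37.4% of the 99. A further 62 were called at 12 h without a call at 2 h, 6 at 2 h without a call at 12 h, and 36 at neither. The response itself, the log2 difference of thapsigargin from DMSO, was larger at 12 h than at 2 h for 35 members and smaller for 2, against 1.92% and 3.15% of all genes (interaction contrast). For some members with few or no vehicle counts this change could not be estimated. Its standard error was 13724 for H2-M10.1, 14091 for Dnmt3l and 100 for Lcn2, so the lack of a call there does not mean an equal response. The number of larger responses depended on single libraries: it was 16 and 19 without replicate 1 or 2 of DMSO at 12 h, 20 without either replicate of thapsigargin at 12 h, 23 without replicate 1 of DMSO at 2 h and 22 without replicate 3 of thapsigargin at 2 h. It was 56 by DESeq2 and 23 with total-count scaling, with which the median of all genes is -0.18 (0.03 with TMM). The 2 smaller responses were those of Hlf and BC051019. Leaving out any single library of the 4 groups other than replicate 3 of DMSO or replicate 2 of thapsigargin at 2 h left 1 of them.

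**Figure D3:**
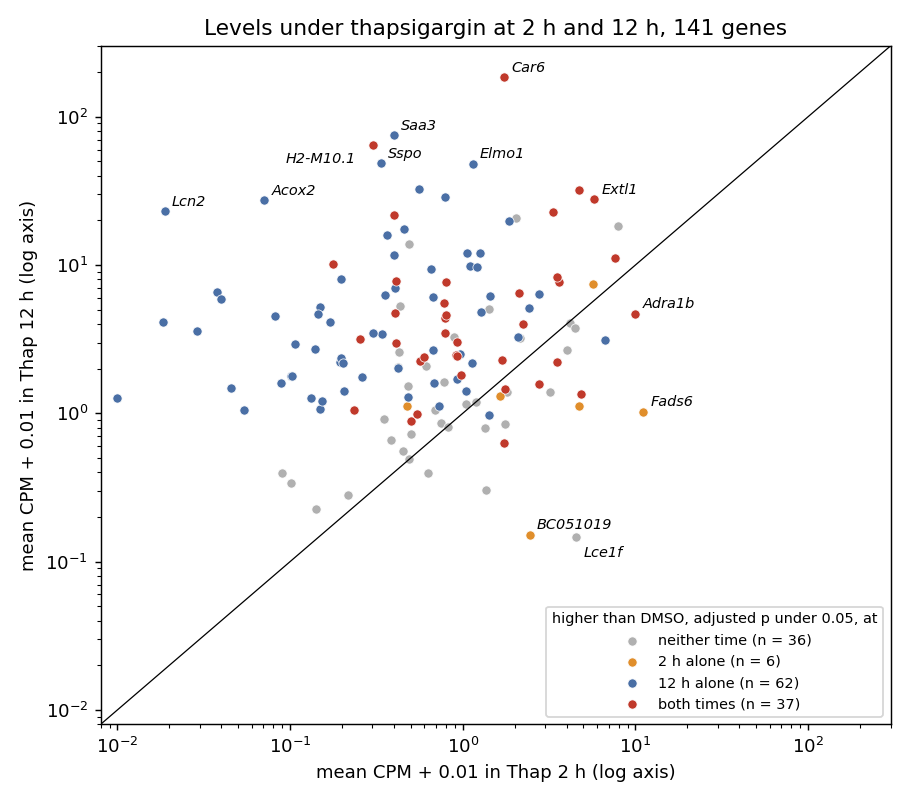
Mean level in thapsigargin at 2 h (horizontal) and 12 h (vertical) for the 141 genes, both as CPM + 0.01 on log axes, coloured by the edgeR call against DMSO at each time. Most points lie above the diagonal of equal level; of the labelled genes, Fads6, Adra1b, Lce1f and BC051019 lie below it.

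Set against their own 6 h level, which the choice of genes favours, the members stood at a median of 18.0% after 2 h, 70.3% after 12 h and 4.46% in recovery. For 243 protein-coding genes that were already at 0.5 CPM or more in DMSO at 6 h and at least 4-fold higher in thapsigargin at 6 h, the same medians were 44.6%, 84.0% and 17.9%. No vehicle level was taken off these shares, and the rule holds that of the members low. At 6 h the members had a median of 0.173 CPM in DMSO and 3.42 CPM in thapsigargin. The 243 had medians of 2.69 CPM in DMSO and 20.9 CPM in thapsigargin, so the shares of the sets cannot be compared directly. The 6 h libraries and those of 2 h and 12 h differ in the transcript-length balance given above, and its part in these shares was not tested. Thapsigargin at 6 h was the highest of the 7 groups for 86 members, thapsigargin at 12 h for 49, thapsigargin at 2 h for 5, and DMSO at 12 h for 1, Hlf. At 12 h the spread was wide: 24 members were at over 200% of their 6 h level, 47 were under 50%, and 9 averaged under 0.5 CPM. The share of genes that rose at 12 h was 70.2% of the members and 68.3% of the 243, and at 2 h 30.5% and 33.7%. The response was larger at 12 h than at 2 h for 24.8% of the members and 28.8% of the 243, and smaller for 1.42% and 2.06%. The difference between the sets was not tested.

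Genes are described below by role; the role groups were drawn up after the values were seen, and 39 members are in none. Among 14 secreted and extracellular proteins, 4 rose at 2 h and 12 at 12 h. Car6 (ENSMUSG00000028972.11, chr4:150187015-150201332), the carbonic anhydrase of saliva, which in mouse cells is known to have a stress-induced form under the control of CHOP, had the highest level per kilobase of transcript of all members in thapsigargin at 6 h and 12 h. It was read at 1.89, 1.58 and 1.71 CPM after 2 h of thapsigargin, against 0.115, 0.113 and 0 CPM in DMSO. After 6 h it stood at 101, 148 and 137 CPM in thapsigargin, against 0.0296, 0.0632 and 0.0914 CPM in DMSO. After 12 h the values were 184 and 185 CPM in thapsigargin, against 0.138 and 0.0518 CPM in DMSO. The groups did not overlap at 2 h or at 12 h, the times that did not choose the genes. The tests gave a log2 difference of 4.28 ± 0.53 (SE) at 2 h (adjusted p = 0.00015) and 10.83 ± 0.71 at 12 h (adjusted p = 1.6e-07). Per kilobase of its longest transcript, its level was 82.1 CPM in thapsigargin at 6 h and 118 CPM at 12 h. The next member by that measure, H2-M10.1, was at 16 CPM at 6 h and 46.5 CPM at 12 h.

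**Figure D4:**
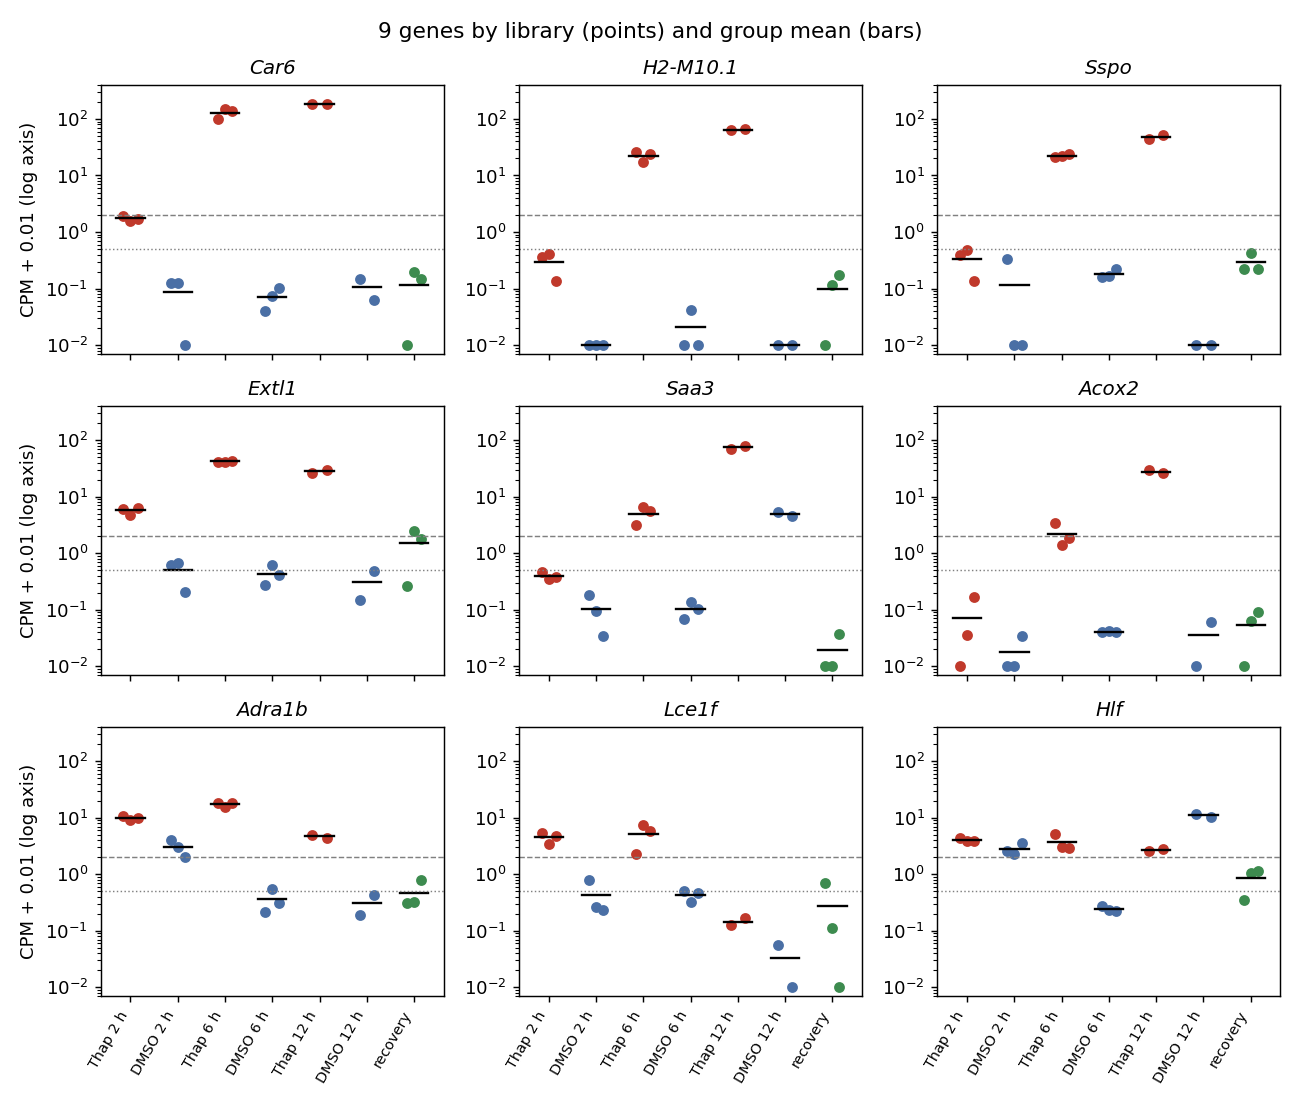
CPM + 0.01 per library (log vertical axis; points are libraries, bars are group means) for 9 genes in the 7 groups, thapsigargin left of DMSO at each time and recovery last. The dotted line marks 0.5 CPM and the dashed line 2 CPM; Car6, H2-M10.1, Saa3 and Acox2 are higher in thapsigargin at 12 h than at 6 h, while Lce1f is under 0.5 CPM at 12 h and Hlf is higher in DMSO at 12 h.

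Sspo (ENSMUSG00000029797.13, chr6:48448229-48501250), SCO-spondin, a very long glycoprotein that glands of the brain secrete into the cerebrospinal fluid, was low at 2 h and high at 12 h. It had 0.377, 0.475 and 0.124 CPM in thapsigargin at 2 h, against 0.317, 0 and 0 CPM in DMSO, which overlap. The 12 h values were 44.5 and 52.9 CPM in thapsigargin and no count in DMSO, at least 671-fold higher (adjusted p = 1.6e-05; the bound takes 3 counts over the DMSO group). Vwf, the clotting factor that endothelial cells store, was read at 11.3 and 12.2 CPM in thapsigargin at 12 h, against 0.412 and 0.57 CPM in DMSO, a log2 difference of 4.57 ± 0.67 (adjusted p = 0.00022). Otog, otogelin of the membranes of the inner ear, had 12.9 and 11.1 CPM in thapsigargin at 12 h, against 0.0916 and 0 CPM in DMSO (adjusted p = 5.5e-06). At 2 h Otog stood at 0.93, 1.16 and 1.06 CPM in thapsigargin and 1.18, 1.08 and 0.952 CPM in DMSO, with the groups overlapping.

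The acute-phase proteins of the set had more CPM in thapsigargin at 12 h than at 6 h, a difference that was not tested. Saa3 (ENSMUSG00000040026.8, chr7:46711998-46715700), a serum amyloid A protein made in inflammation, had 3.1, 6.48 and 5.5 CPM in thapsigargin at 6 h and 70.5 and 79.6 CPM at 12 h, where DMSO libraries had 5.27 and 4.61 CPM. The log2 difference at 12 h was 3.92 ± 0.47 (adjusted p = 3.1e-05). Lcn2, lipocalin, which binds the iron carriers of bacteria, had 1.46, 3.22 and 2.21 CPM in thapsigargin at 6 h and 23.5 and 22.4 CPM at 12 h, against 0.0458 and 0.0518 CPM in DMSO at 12 h, a ratio of 472 (95% interval 130.2 to 3901) by counting error alone (adjusted p = 6.5e-05). At 2 h a single Lcn2 count was found in the 3 thapsigargin libraries and none in DMSO.

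Bglap3 (ENSMUSG00000074489.9, chr3:88368616-88372743), a relative of the bone protein osteocalcin, had its highest level at 6 h. It was at 6.03, 4.75 and 3.77 CPM after 2 h of thapsigargin, against 0.202, 0.17 and 0.171 CPM in DMSO, a log2 difference of 4.49 ± 0.41 (adjusted p = 8.6e-06). At 6 h it had 12.4, 19.1 and 16.5 CPM in thapsigargin and 0.236, 0.505 and 0.396 CPM in DMSO. At 12 h it had 1.1 and 1.57 CPM in thapsigargin, against 0.138 and 0.363 CPM in DMSO, still a rise of 2.41 ± 0.52 on the log2 scale (adjusted p = 0.0045), though not without replicate 1 of DMSO at 12 h (adjusted p = 0.097) or replicate 2 of thapsigargin (adjusted p = 0.051). Inhbe, the activin subunit of liver, followed a like course at a lower level, with 0.377, 0.475 and 0.623 CPM in thapsigargin at 2 h and no count in DMSO, at least 17.8-fold higher (adjusted p = 0.0064). Its means were 0.491 CPM at 2 h, 2.56 CPM at 6 h and 0.878 CPM at 12 h of thapsigargin, where its call (adjusted p = 0.015) was lost whichever 12 h library was left out (adjusted p of 0.057 to 0.15). Ccn5, a matrix-associated growth regulator, was read at 0.116 and 0.47 CPM in thapsigargin at 12 h, against 0.779 and 1.5 CPM in DMSO, and passed no test at 2 h or 12 h.

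The stretch before the start of these genes was read for elements bound by factors of the stress responses. A promoter entry of 300 bases around the annotated start was found for 110 of the 141 genes in RefSeq (GRCm38.p6). The letters TGATGCAA, the element that C/EBP and ATF factors such as CHOP and ATF4 share, were found on either strand in 4 of the 110 (3.64%), against 1.36% of 7150 other near-silent genes and 1.04% of 16513 protein-coding genes. The 4 are Bglap3, Inhbe, Serpinb9c and 4930438A08Rik. The windows of Bglap3, Inhbe and Serpinb9c are shown because these genes rose at 2 h and their windows hold the element, in capitals (TTGCATCA is its reverse complement), and that of Car6 because it has the highest level and holds none of the letters searched. All run 5′ to 3′ on the minus strand, the strand of the gene.
Bglap3, chr3:88372692-88372991: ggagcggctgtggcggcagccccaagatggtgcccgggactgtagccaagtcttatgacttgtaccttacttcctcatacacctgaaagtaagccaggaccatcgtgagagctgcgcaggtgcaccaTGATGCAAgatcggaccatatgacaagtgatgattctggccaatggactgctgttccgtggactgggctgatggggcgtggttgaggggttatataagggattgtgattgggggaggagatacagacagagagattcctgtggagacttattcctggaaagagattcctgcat
Inhbe, chr10:127351799-127352098: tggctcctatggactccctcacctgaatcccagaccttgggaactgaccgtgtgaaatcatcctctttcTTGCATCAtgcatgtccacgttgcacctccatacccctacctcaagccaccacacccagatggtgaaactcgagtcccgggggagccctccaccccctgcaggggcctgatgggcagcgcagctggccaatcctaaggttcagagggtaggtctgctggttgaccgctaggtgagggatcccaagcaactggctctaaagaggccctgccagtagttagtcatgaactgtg
Serpinb9c, chr13:33158302-33158601: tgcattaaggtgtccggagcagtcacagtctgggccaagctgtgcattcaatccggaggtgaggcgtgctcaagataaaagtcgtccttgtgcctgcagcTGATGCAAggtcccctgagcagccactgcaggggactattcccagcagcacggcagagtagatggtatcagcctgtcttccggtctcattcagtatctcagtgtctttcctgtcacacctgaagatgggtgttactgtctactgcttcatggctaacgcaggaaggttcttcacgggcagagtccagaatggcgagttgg
Car6, chr4:150201086-150201385: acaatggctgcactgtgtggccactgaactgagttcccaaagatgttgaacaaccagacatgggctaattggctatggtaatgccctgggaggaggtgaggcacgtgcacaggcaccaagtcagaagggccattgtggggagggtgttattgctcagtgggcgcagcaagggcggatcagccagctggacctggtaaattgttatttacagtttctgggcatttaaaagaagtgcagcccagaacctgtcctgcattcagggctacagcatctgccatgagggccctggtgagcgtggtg
The element begins at base 128 of the Bglap3 window, base 70 of Inhbe and base 101 of Serpinb9c. The Car6 window covers only the annotated start in this promoter set. Whether the stress-induced form of Car6 starts there was not tested. The window of a second annotated start of Bglap3 holds it too, and the annotated starts of Inhbe and Serpinb9c lie inside the spans that GENCODE gives these genes. Of the other elements, TGACGTCA, the cyclic AMP element bound by ATF and CREB factors, was in 3 windows (2.73%, against 1.24% and 2.63%), and TGACGTGG, bound by XBP1 and ATF6, in 2 (1.82%, against 0.657% and 0.86%). An NF-kB element, GGGA followed by any base and TTTCC, was in 4 (3.64%, against 0.503% of both comparison sets): Clec2l, Enthd1, Il6 and Neurl3. By edgeR, Il6 was called higher at 12 h alone, Neurl3 at 2 h alone, and Clec2l and Enthd1 at neither time. TATAAA was in 12 (10.9%, against 22.0% and 14.3%). These shares are descriptions of the letters in the windows, and no binding was measured.

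Of 3 cytokines, 2 rose at 12 h and 0 passed edgeR's test at 2 h, where Il23a and Ccl5 had an unadjusted p under 0.05 and DESeq2 called Il23a (adjusted p = 0.0093). Il6, an inflammatory cytokine that muscle also releases, had 1.76, 1.61 and 2.18 CPM in thapsigargin at 2 h, against 1.27, 1.39 and 0.879 CPM in DMSO, and passed no test there. The 12 h values of Il6 were 22.7 and 17 CPM in thapsigargin and 1.24 and 0.985 CPM in DMSO, a log2 difference of 4.14 ± 0.52 (adjusted p = 5.6e-05). Il23a, the subunit particular to interleukin 23, had 6.24 and 6.27 CPM in thapsigargin at 12 h, against 0 and 0.0518 CPM in DMSO (adjusted p = 1.7e-05). The chemokine Ccl5 had 12.8 and 14.8 CPM in thapsigargin and 1.83 and 1.4 CPM in DMSO at 12 h; the groups did not overlap, but edgeR's test was not passed (adjusted p = 0.084), while that of DESeq2 was (adjusted p = 0.042). The interferon-induced Ifit1 and Ifit3, which restrict viral RNA and lie next to each other on chromosome 19, passed neither at 2 h nor at 12 h, although both had an unadjusted p under 0.05 at 12 h by edgeR and by DESeq2. Ifit1 had 20.1 and 21.6 CPM in thapsigargin at 12 h, against 6.51 and 6.89 CPM in DMSO (adjusted p = 0.13).

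All 4 members of the Serpinb9 cluster on chromosome 13, inhibitors related to the granzyme B inhibitor of killer cells, rose at 12 h and 3 rose at 2 h. They lie within chr13:33149275-33496004. Serpinb9g had 3.64, 3.27 and 3.11 CPM in thapsigargin at 2 h, against 0.721, 0.596 and 0.561 CPM in DMSO, and 22.9 and 22.3 CPM in thapsigargin at 12 h, against 0.641 and 0.622 CPM in DMSO. Its log2 differences were 2.19 ± 0.36 at 2 h (adjusted p = 0.0022) and 5.14 ± 0.50 at 12 h (adjusted p = 4.7e-06). Serpinb9c differed by 5.21 ± 0.62, Serpinb9d by 3.12 ± 0.52 and Serpinb9f by 4.01 ± 0.69 on the log2 scale at 12 h. Serpinb9f was the one not called at 2 h (adjusted p = 0.32), and Serpinb9d was not called there without replicate 2 of DMSO (adjusted p = 0.051). These genes are close copies, so counts may be split or shared among them. Of 9 proteases, 4 rose at 2 h and 7 at 12 h. Tpsab1, a tryptase of mast cells, had 4.83, 4.38 and 4.86 CPM in thapsigargin at 2 h, against 0.49, 0.454 and 0.513 CPM in DMSO, and 30.8 and 33.0 CPM in thapsigargin at 12 h, against 4.67 and 5.39 CPM in DMSO. It rose by 3.03 ± 0.41 (adjusted p = 0.00037) and 2.66 ± 0.47 (adjusted p = 0.00098) on the log2 scale.

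Among 11 genes of antigen presentation and immune signalling, 5 rose at 2 h and 8 at 12 h. H2-M10.1 (ENSMUSG00000024448.14, chr17:36322858-36326155), an MHC class I molecule known in mouse from sensory neurons of the vomeronasal organ, had no count in 7 of the 8 DMSO libraries and 1 count in the other. It had 0.352, 0.396 and 0.124 CPM in thapsigargin at 2 h (adjusted p = 0.004), 26, 17.6 and 23.5 CPM at 6 h and 63.8 and 65.8 CPM at 12 h, at least 889-fold above DMSO at 12 h (adjusted p = 1.2e-06). Its neighbour H2-M10.4, on the same strand of chromosome 17, had 4.1 and 4.13 CPM in thapsigargin at 12 h and no count in any DMSO library, at least 56.4-fold higher (adjusted p = 0.00036). The 2 are close copies, and reads may be shared between them. Cd74, the invariant chain that chaperones MHC class II molecules, had 27.4 and 37.4 CPM in thapsigargin at 12 h, against 0.779 and 0.57 CPM in DMSO, a log2 difference of 5.57 ± 0.72 (adjusted p = 7.4e-05). Dntt, the polymerase that adds bases to antigen receptor joints, was highest at 6 h, with means of 0.224, 4.44 and 1.04 CPM at 2, 6 and 12 h of thapsigargin. Themis, needed for the selection of thymocytes, passed neither test (adjusted p = 0.39 at 2 h and 0.21 at 12 h).

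Markers of immune and other foreign cells were followed beside these genes. Macrophage markers summed to 4.90 to 5.77 CPM in thapsigargin and 7.27 to 8.69 CPM in DMSO at 6 h, and to 4.05 to 4.70 CPM in thapsigargin and 6.27 to 6.37 CPM in DMSO at 12 h, with Adgre1 at 0 in every group. Lymphocyte markers summed to 4.25 to 5.94 CPM in thapsigargin and 0.975 to 1.42 CPM in DMSO at 6 h, and to 7.53 to 7.86 CPM in thapsigargin and 0.733 to 1.503 CPM in DMSO at 12 h. Most of that was Lck, at 4.65 CPM in thapsigargin at 6 h and 7.56 CPM at 12 h, with Cd3e at 0 throughout. Endothelial markers summed to 7.49 to 11.7 CPM in thapsigargin and 0.579 to 0.946 CPM in DMSO at 6 h, and to 14.2 to 14.8 CPM in thapsigargin and 1.01 to 1.503 CPM in DMSO at 12 h; most of the sum in thapsigargin was Vwf, itself a member, at 5.72 CPM in thapsigargin at 6 h and 11.8 CPM at 12 h. Of the other 6, Cdh5 averaged 1.56 CPM in thapsigargin and 0.114 CPM in DMSO at 6 h, Kdr 1.37 CPM in thapsigargin and 0.11 CPM in DMSO, and Tek 0.814 CPM in thapsigargin and 0.192 CPM in DMSO, while Tie1 and Erg were at 0.252 CPM or less in every group. Pecam1 averaged 0.15 CPM in thapsigargin and 0.0923 CPM in DMSO at 6 h, 0.22 CPM and 0 CPM at 12 h, and 0.267 CPM in recovery. Germ cell markers stayed at or under 0.52 CPM in every library. Adipocyte markers summed to 144.8 to 155 CPM in thapsigargin and 53.0 to 58.7 CPM in DMSO at 12 h, epithelial markers to 12.7 to 14.4 CPM in thapsigargin and 20.9 to 22.3 CPM in DMSO, and neuronal markers to 117 to 139 CPM in thapsigargin and 160 to 169 CPM in DMSO. Most of the adipocyte sum at 12 h was Lpl (133 CPM in thapsigargin, 41.3 CPM in DMSO), and most of the epithelial sum was Krt19. At 6 h adipocyte markers summed to 72.6 to 105.6 CPM in thapsigargin and 19.4 to 30.4 CPM in DMSO. Most of that was Pparg (60.2 CPM in thapsigargin, 13.3 CPM in DMSO), with Lpl at 23.7 CPM in thapsigargin and 11.3 CPM in DMSO. Adipoq, Plin1 and Cidec were at 0.0782 CPM or less in every group. Epithelial and neuronal sums of the 2 treatments overlapped at 6 h. There Krt8 averaged 11.1 CPM in thapsigargin and 1.13 CPM in DMSO, and Krt19 70.5 CPM in thapsigargin and 100.8 CPM in DMSO. The part of other cell types in the members' levels was not tested.

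Of 9 regulators of transcription and chromatin, 2 rose at 2 h, 6 rose at 12 h and 1 fell at 12 h. Tfcp2l1, a factor of pluripotent cells and of kidney tubules, had 30.2 and 27.5 CPM in thapsigargin at 12 h, against 0.183 and 0.207 CPM in DMSO, a log2 difference of 7.17 ± 0.87 (adjusted p = 3.9e-05). Klf15, a glucocorticoid-responsive regulator of amino acid metabolism in muscle, had no count in DMSO at 2 h or 6 h and 3 counts at 12 h. In thapsigargin it had 1.0, 0.791 and 0.56 CPM at 2 h, at least 29.6-fold higher (adjusted p = 0.00016), 6.64, 8.43 and 7.65 CPM at 6 h and 6.99 and 8.36 CPM at 12 h (adjusted p = 2.8e-05). Dnmt3l, a cofactor of DNA methylation in germ cells, had no count in any DMSO library and 7.05 and 6.01 CPM in thapsigargin at 12 h, at least 89.1-fold higher (adjusted p = 0.00055). Bhlha15, a factor of secretory cells also called Mist1 and a known target of the XBP1 arm of the unfolded protein response, had 0.0754, 0.0791 and 0.0622 CPM at 2 h of thapsigargin, against 0.0577, 0 and 0.0732 CPM in DMSO, and 4.39 and 4.65 CPM at 12 h, against 0.138 and 0 CPM in DMSO (adjusted p = 0.00045).

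For Ppargc1a and Hlf the vehicle level at 6 h was below that at the other times. Both have long transcripts, of 6464 and 5642 bases, and genes with long transcripts were lower in the DMSO libraries at 6 h than in those at 2 h and 12 h by the measure given above; its part in these levels was not tested. Ppargc1a, the coactivator of mitochondrial biogenesis, averaged 0.457 ± 0.239 CPM in DMSO at 6 h but 2.74 ± 2.29 CPM at 2 h and 4.25 ± 0.661 CPM at 12 h (SD). It had 18.4 and 18.2 CPM in thapsigargin at 12 h, against 4.72 and 3.78 CPM in DMSO, without overlap, and just missed the threshold (adjusted p = 0.053). Hlf, a clock-controlled transcription factor of the PAR bZIP family, fell at 12 h: it had 2.54 and 2.77 CPM in thapsigargin, against 11.7 and 10.42 CPM in DMSO, a log2 difference of -2.06 ± 0.34 (adjusted p = 0.00065). At 2 h it had 4.35, 3.82 and 3.83 CPM in thapsigargin and 2.54, 2.33 and 3.59 CPM in DMSO, and passed no test (adjusted p = 0.74). Its means in thapsigargin, 4.0, 3.69 and 2.66 CPM at 2, 6 and 12 h, varied less than those in DMSO, 2.82, 0.234 and 11.1 CPM.

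Enzymes of liver and steroid tissue were a further group. Of 5 cytochrome P450 genes, 1 rose at 2 h and 3 at 12 h, and of 9 enzymes of lipid, steroid and purine metabolism, 3 rose at 2 h and 7 at 12 h. Cyp4f40, of a family of fatty acid hydroxylases, had 6.45, 6.29 and 7.07 CPM in thapsigargin at 6 h and no count in DMSO at 6 h or 12 h. At 12 h it had 4.04 and 5.49 CPM in thapsigargin, at least 65.8-fold higher (adjusted p = 0.00014). Its relative Cyp4f18 had no count in any DMSO library and 2.77 and 3.08 CPM in thapsigargin at 12 h, at least 40.2-fold higher (adjusted p = 0.0011). The 2 belong to a family of close copies, and an exon of Cyp4f18 overlaps one of Zfp961 on the other strand. Acox2, a peroxisomal oxidase of bile acid intermediates, had 0, 0.0264 and 0.156 CPM in thapsigargin at 2 h, 3.41, 1.36 and 1.88 CPM at 6 h and 29.0 and 25.8 CPM at 12 h, where the 2 DMSO libraries held 1 count, a ratio of 1123 (95% interval 201 to 44390) by counting error (adjusted p = 6.6e-06). Akr1b7, an aldo-keto reductase of the adrenal gland, had no count in DMSO and 10.05 and 10.3 CPM in thapsigargin at 12 h (adjusted p = 7.1e-05).

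A few members were higher in thapsigargin at 2 h than at 12 h. Fads6, of the fatty acid desaturase family, had 12.4, 9.68 and 11.2 CPM in thapsigargin at 2 h, against 2.42, 2.84 and 1.37 CPM in DMSO, a log2 difference of 2.13 ± 0.36 (adjusted p = 0.0025). By 12 h Fads6 had 0.982 and 1.04 CPM in thapsigargin and 0.687 and 0.259 CPM in DMSO, and passed no test (adjusted p = 0.21). Lce1f, a protein of the cornified envelope of skin, had the highest level per kilobase of transcript of all members at 2 h of thapsigargin, 6.21 CPM. It had 5.43, 3.43 and 4.7 CPM in thapsigargin at 2 h, against 0.778, 0.255 and 0.22 CPM in DMSO, and missed the threshold (adjusted p = 0.054). At 12 h it was at 0.116 and 0.157 CPM in thapsigargin. BC051019 rose at 2 h, with 2.44, 1.53 and 3.33 CPM in thapsigargin, against 0.26, 0.142 and 0.342 CPM in DMSO (log2 difference 3.01 ± 0.60, adjusted p = 0.0083). By 12 h it had 0.231 and 0.0523 CPM in thapsigargin and 0.229 and 0.467 CPM in DMSO.

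All 3 glycosyltransferases rose at 12 h and 2 rose at 2 h. Extl1 (ENSMUSG00000028838.11, chr4:134356372-134383850), an exostosin-like enzyme of heparan sulfate synthesis, had 41.6, 40.9 and 43.5 CPM in thapsigargin at 6 h. It had 6.08, 4.75 and 6.41 CPM in thapsigargin at 2 h, against 0.605, 0.652 and 0.195 CPM in DMSO, and 26.3 and 29.5 CPM in thapsigargin at 12 h, against 0.138 and 0.467 CPM in DMSO. The log2 differences were 3.38 ± 0.47 (adjusted p = 0.00045) and 6.53 ± 0.67 (adjusted p = 7.1e-06). Fut1, which makes the H blood group antigen, had 2.36, 1.48 and 1.43 CPM in thapsigargin at 2 h, where DMSO held 1 count (adjusted p = 0.0002), and stood at 5.01 CPM at 6 h and 1.45 CPM at 12 h.

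Of 7 solute carriers and ABC transporters, 3 rose at 2 h and 6 at 12 h. Slc7a3, a carrier of arginine and lysine, had 10.00 and 9.67 CPM in thapsigargin at 12 h, against 1.42 and 1.09 CPM in DMSO (log2 difference 2.96 ± 0.81, adjusted p = 0.022); the call was lost when either replicate of either 12 h group was left out (adjusted p of 0.084 to 0.19). Slc1a7, a glutamate transporter of the retina, rose at 2 h by 2.68 ± 0.58 and at 12 h by 5.77 ± 0.78 on the log2 scale (adjusted p = 0.014 and 0.0001). Without replicate 1 of thapsigargin at 2 h, its 2 h call was lost (adjusted p = 0.057). Abcb1a, the drug efflux pump P-glycoprotein, had 2.19, 2.9 and 2.12 CPM in thapsigargin and 2.36, 2.64 and 1.61 CPM in DMSO at 2 h, which overlap. The 12 h values were 5.2 and 5.07 CPM in thapsigargin and 0.962 and 0.467 CPM in DMSO (adjusted p = 0.0038, and 0.083 without replicate 2 of DMSO).

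Of 6 receptors and channels, 2 rose at 2 h and 3 at 12 h, and of 6 synaptic and neuronal genes, 1 rose at 2 h and 5 at 12 h. Adra1b, the alpha-1B adrenergic receptor, had 10.9, 9.04 and 9.9 CPM in thapsigargin at 2 h, against 3.98, 3.03 and 2.03 CPM in DMSO, and 18.1, 15.7 and 18.3 CPM in thapsigargin at 6 h, against 0.207, 0.537 and 0.305 CPM in DMSO. At 12 h it had 5.03 and 4.34 CPM in thapsigargin and 0.183 and 0.415 CPM in DMSO. Its log2 difference was 3.96 ± 0.50 at 12 h (adjusted p = 5.9e-05) and 1.52 ± 0.33 at 2 h (adjusted p = 0.014). The 2 h call was lost without replicate 2 or 3 of DMSO (both adjusted p = 0.056) or replicate 1 of thapsigargin (adjusted p = 0.066). Both the level in thapsigargin and the level in DMSO were thus lower at 12 h than at 2 h. The log2 difference was larger at 12 h (change in response 2.44 ± 0.59, adjusted p = 0.023), a call lost in 6 of 10 cases when a single library was left out, with an adjusted p of up to 0.22 without replicate 1 of DMSO at 12 h. P2rx3, the ATP-gated channel of sensory neurons, had 15.5 and 16.4 CPM in thapsigargin at 12 h, against 0.366 and 0.0518 CPM in DMSO (log2 difference 6.18 ± 0.83, adjusted p = 9.9e-05); an exon of it overlaps one of Ssrp1 on the other strand. Gabrr1, a subunit of GABA receptors of the retina, had no count in DMSO at 2 h and 0.226, 0.659 and 0.311 CPM in thapsigargin, at least 14.8-fold higher (adjusted p = 0.0063). Clic5, an intracellular chloride channel protein, was at 4.33 and 3.81 CPM in thapsigargin and 2.25 and 1.76 CPM in DMSO at 12 h and passed neither test.

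Diras2, a small GTPase of the brain, had 2.89 and 3.35 CPM in thapsigargin at 12 h, against 0.55 and 0.622 CPM in DMSO (log2 difference 2.40 ± 0.36, adjusted p = 0.00027). At 2 h it had 7.19, 6.41 and 6.41 CPM in thapsigargin and 3.78, 3.29 and 3.47 CPM in DMSO, apart but not called (adjusted p = 0.15). Cdh22, a cadherin of the brain, had 4.68 and 5.64 CPM in thapsigargin at 12 h, where DMSO held 1 count, a ratio of 213 (95% interval 37.8 to 8467) by counting error (adjusted p = 8.2e-05). Of 8 genes of germ cells and cilia, 1 rose at 2 h and 7 at 12 h, and Tcam1, an adhesion molecule of the testis, had the highest level of these per kilobase at 12 h of thapsigargin, 3.44 CPM. It was at 11.8 and 12.3 CPM in thapsigargin at 12 h, against 0.55 and 0.311 CPM in DMSO (log2 difference 4.78 ± 0.56, adjusted p = 3e-05).

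Of 6 genes of the cytoskeleton and adhesion, 1 rose at 2 h and 4 at 12 h. Fat2, a giant cadherin, had 7.92, 7.04 and 7.94 CPM in thapsigargin at 2 h, against 1.3, 1.08 and 1.1 CPM in DMSO, and 11.2 and 11.1 CPM in thapsigargin at 12 h, against 0.183 and 0 CPM in DMSO. The log2 difference was 2.49 ± 0.35 at 2 h (adjusted p = 0.00048) and 6.79 ± 0.59 at 12 h (adjusted p = 1.4e-06). Elmo1, which acts with Dock proteins to activate Rac in engulfment and migration, did not differ beyond its spread at 2 h, with 1.28, 1.37 and 0.747 CPM in thapsigargin and 1.24, 0.936 and 1.88 CPM in DMSO. After 12 h Elmo1 had 48.1 and 48.5 CPM in thapsigargin and 1.33 and 1.09 CPM in DMSO, a log2 difference of 5.31 ± 0.55 (adjusted p = 7.9e-06). Of the members in no role group, Dyrk4, a protein kinase, had 0.151, 0.422 and 0.591 CPM in thapsigargin at 2 h, where DMSO held 1 count (adjusted p = 0.0022), and 20.7 and 22.9 CPM at 12 h, against 0.183 and 0.104 CPM in DMSO (log2 difference 7.18 ± 0.66, adjusted p = 2.6e-06). Tceal7, of a family of elongation factor-like proteins, had 1.56 and 1.83 CPM in thapsigargin at 12 h and no count in DMSO, at least 23.3-fold higher (adjusted p = 0.00014).

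The positions of the members show few shared neighbourhoods. Within 200000 bp of another member lay the Serpinb9 cluster, the H2-M10 pair, the Ifit pair and Sptb with Rab15; the others had no such neighbour. An exon of 12 members (8.51%) overlapped an exon of a gene at 2 CPM or more at 6 h, against 6.36% of 9987 other near-silent genes. These were Cox20, Mettl7b, Trim17, Spns2, Atl1, Sptb, P2rx3, Mmp24, Chrnb2, Tmem116, Cyp4f18 and Kctd19, and the labels describe no step that marks strand, so their reads and those of the partner cannot be told apart. For Trim17, a ubiquitin ligase, the partner is the histone gene Hist3h2a on the same strand. A same-strand gene at 2 CPM or more ended within 10000 bp upstream of 13 members (9.22%), against 7.07% of the other near-silent genes, and in 1 case, Trim17 again, that gene was itself at least 4-fold higher in thapsigargin at 6 h (Hist3h2ba, 5.63 CPM in thapsigargin and 0.213 CPM in DMSO).

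After 6 h of thapsigargin and 48 h without it, the set was low again. The summed level was 31.1, 49.6 and 45.3 CPM in the recovery libraries, against 1118 and 1167 CPM in thapsigargin at 12 h and 67.8, 63.2 and 61.2 CPM in DMSO at 2 h. No member averaged 2 CPM in recovery, 27 lay between 0.5 and 2 CPM, and 114 under 0.5 CPM. Against thapsigargin at 12 h, 120 members were lower in recovery and 1, Ccn5, was higher, where 23.1% and 23.0% of all genes were, and 20 did not pass. The median log2 difference was -3.75 over the members and -0.05 over all genes. Of the 243 genes already at 0.5 CPM or more in DMSO at 6 h and at least 4-fold higher in thapsigargin, 78.2% were lower in recovery, against 85.1% of the members. The 2 groups differ in the length of exposure, 6 h and 12 h, in the drug-free time and in the transcript-length balance, at -1.33 to -0.12 in recovery and 0.40 to 0.53 in thapsigargin at 12 h, whose part in these calls was not tested. Car6 was at 0, 0.183 and 0.135 CPM in recovery (log2 difference from thapsigargin at 12 h -10.30 ± 0.56, adjusted p = 1.1e-08). Saa3 had 1 count in recovery in all and Lcn2 none. Ccn5 was read at 1.65, 0.992 and 0.755 CPM in recovery, against 0.116 and 0.47 CPM in thapsigargin at 12 h (log2 difference 2.51 ± 0.69, adjusted p = 0.0091), a call lost without replicate 1 of thapsigargin at 12 h (adjusted p = 0.11).

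Against DMSO at 2 h, recovery was higher for 18 members and lower for 22, and 101 did not pass. The share called was below that of all genes, of which 25.8% were higher and 22.3% lower. Members had medians of 0.231 CPM in recovery and 0.189 CPM in DMSO at 2 h, so the lack of a call does not mean an equal level. Of 2074 protein-coding genes tested that were under 0.5 CPM in DMSO and under 2 CPM in thapsigargin at 6 h, 7.28% were higher and 17.1% lower. Of the 243 genes already at 0.5 CPM or more in DMSO at 6 h and at least 4-fold higher in thapsigargin, 28.4% were higher and 29.2% lower. The median log2 difference was 0.00 over the members and over all genes. The 18 that were higher averaged 0.0699 to 1.496 CPM in recovery. Extl1 had 0.254, 2.45 and 1.78 CPM in recovery, against 0.605, 0.652 and 0.195 CPM in DMSO at 2 h, which overlap (log2 difference 1.70 ± 0.46, adjusted p = 0.0074). Bglap3 had 0.382, 0.47 and 0.62 CPM in recovery and 0.202, 0.17 and 0.171 CPM in DMSO at 2 h (log2 difference 1.60 ± 0.42, adjusted p = 0.006), and Dyrk4 0.127, 0.626 and 0.566 CPM in recovery, where DMSO at 2 h held 1 count (adjusted p = 0.00025). Ifit1 had 3.05, 1.12 and 1.24 CPM in recovery, against 1.73, 1.11 and 1.27 CPM in DMSO at 2 h, and passed no test (adjusted p = 0.22).

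The 22 that were lower had a median of 0.126 CPM in recovery and 1.01 CPM in DMSO at 2 h. By the choice of genes, every member averaged under 0.5 CPM in DMSO at 6 h, against which recovery was not tested. Among the 22, all 4 Serpinb9 genes were below DMSO at 2 h, with Serpinb9c at 0, 0.0783 and 0.0809 CPM in recovery, against 0.288, 0.567 and 0.269 CPM in DMSO at 2 h (log2 difference -2.52 ± 0.58, adjusted p = 0.0033). The call of Serpinb9g was lost without replicate 1 of DMSO at 2 h (adjusted p = 0.058) or replicate 2 of recovery (adjusted p = 0.11). Abcb1a had 0, 0.183 and 0.162 CPM in recovery, against 2.36, 2.64 and 1.61 CPM in DMSO at 2 h (log2 difference -4.04 ± 0.55, adjusted p = 0.00016). Il6 had 0, 0.157 and 0.135 CPM in recovery, against 1.27, 1.39 and 0.879 CPM in DMSO at 2 h (log2 difference -3.36 ± 0.49, adjusted p = 0.00025), and Themis 0, 0.0783 and 0.0539 CPM, against 1.1, 0.964 and 1.85 CPM in DMSO at 2 h (adjusted p = 0.00061). With DMSO at 12 h as the vehicle instead, 18 members were higher and 15 lower, of which 8 and 8 were the same genes. Adra1b, Diras2, Fads6, Fat2, Tceal7, Ccl5 and Ifit3 then changed direction. Transcript length moved with these calls: the longest transcript had a median of 2230 bases over the 18, 3286 over the 22 and 2557 over all members. The balance of long over short transcripts was also lower in recovery, at -1.33 to -0.12, than in DMSO at 2 h, at 0.56 to 0.98, and its part in these calls was not tested. Without replicate 3 of DMSO at 2 h and replicate 1 of recovery, the libraries rich in mitochondrial counts, 15 members were higher and 26 lower.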

How the data were processed

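The deposited files hold whole-number read counts per gene for each of 19 libraries, made by the authors from poly(A)-selected RNA, per the labels' protocols. Trim Galore, STAR 2.5.3a, bedtools 2.31.0 and DESeq2 with mm10 are named per the submitters' processing notes; which program did the counting, with which strand setting and annotation, is not given in the sources used here. The 5 closing lines of each file, for reads given to no gene, equal 13.7% to 28.7% of its total and were left out, with ambiguous reads (5.49% to 8.18%) and reads of several places (3.75% to 15.4%) among them, so counts of genes with close copies are uncertain. Gene names, biotypes, positions and transcript lengths came from GENCODE M21 (GRCm38), which matched 55141 of 55401 identifiers, 54349 of them with the version, and promoter sequences from RefSeq (GRCm38.p6).

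CPM in the text divide by the summed gene counts. Tests used the counts of all 19 libraries in one model with edgeR 4.0.16 (quasi-likelihood, TMM scaling, limma 3.58.1, R 4.3.3), with a term for each of the 7 groups. The low-count filter of edgeR left 18039 genes, and all 141 members passed it, through the 6 h thapsigargin libraries that chose them. The biological coefficient of variation was 0.352. P-values are two-sided and Benjamini-Hochberg adjusted over all genes tested, and a call is an adjusted p under 0.05. Standard errors come from that fit. Ratios with 95% intervals take counts as Poisson and cover counting error only; where a group had no count, 3 counts over the group gave the bound. The fits were tested on simulated data. The simulated rises were placed only in genes of higher mean level, so genes with vehicle levels near 0 were not covered.

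The members, the gene lists (integrated stress response; myoblast, macrophage, endothelial, epithelial, neuronal, lymphocyte, adipocyte and germ cell markers) and the tests were chosen with earlier results of these data known. Leaving out clone names, members were named for a mean CPM among the 12 highest in thapsigargin at 6 h or the 5 highest in thapsigargin at 2 h, at 12 h or in recovery, or for 1 of the 4 largest or 4 smallest called changes in response, with Car6, H2-M10.1 and Sspo; further genes were added after their values were seen: Klf15, Bhlha15, Lcn2, Il6, Il23a, Ccl5, Serpinb9c, Serpinb9d, Serpinb9f, Serpinb9g, Dnmt3l, Cyp4f18, Cyp4f40, H2-M10.4, Inhbe, Acox2, Vwf, Slc7a3, Slc1a7, P2rx3, Ifit3, Dntt, Lce1f, BC051019, Gabrr1, Trim17, Themis, Abcb1a, Tcam1, Akr1b7, Fut1 and Cdh22. Alternatives were DESeq2 1.42.0, its size factors, total-count scaling, no low-count filter, the replicate number as a block, leaving out each library, other limits for membership and DMSO at 12 h as the vehicle for recovery. Those without the 6 h libraries and without the pair rich in mitochondrial counts were added after the data were seen.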

Additional observations from a re-analysis of the deposited data

Results flagged for a closer look

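The response to thapsigargin, its log2 difference from DMSO, differed between 12 h and 2 h for 37 members by the interaction test of edgeR (adjusted p under 0.05): it was larger at 12 h for 35 and smaller for 2, against 1.92% and 3.15% of all genes. These were 24.8% and 1.42% of the members. Of the 243 genes already at 0.5 CPM or more in DMSO at 6 h and at least 4-fold higher in thapsigargin, 28.8% had a larger and 2.06% a smaller response. Among the members named, the largest gains on the log2 scale were those of Car6 (6.54), Elmo1 (5.81), Tfcp2l1 (5.68) and P2rx3 (5.05). Vwf gained 4.32, Fat2 4.30, Il6 3.71, Tcam1 3.26, Extl1 3.15, Serpinb9f 3.0, Serpinb9g 2.95, Abcb1a 2.90, Adra1b 2.44 and Diras2 1.70. For genes with 3 counts or fewer in a group the size is not given: the adjusted p was 4.4e-05 for Otog, 0.0019 for Sspo, 0.0019 for Tceal7, 0.0092 for Il23a and 0.035 for Bhlha15. The response of Hlf was smaller at 12 h by a log2 difference of -2.32 and that of BC051019 by -4.31. The calls of Car6, Elmo1, Fat2, Hlf, Il6, Otog, Tfcp2l1 and Tceal7 held whichever library was left out, and the other 13 were lost in at least 1 case. For some members with few or no vehicle counts, H2-M10.1 among them, the change in response could not be estimated. Groups of 2 or 3 libraries are too small for a test of a single library that stands apart.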

How the results depend on the processing

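Members higher at 2 h numbered 67 by DESeq2 and 26 to 38 when single libraries were left out, lowest without replicate 1 of thapsigargin at 2 h. Larger responses at 12 h numbered 56 by DESeq2, 23 with total-count scaling and 16 to 34 with single libraries left out; smaller ones numbered 1 without the 6 h libraries and 1 to 2 with single libraries left out. Leaving out single libraries gave 70 to 85 members higher at 12 h, 107 to 125 lower in recovery than in thapsigargin at 12 h, and 14 to 20 higher and 20 to 27 lower in recovery than in DMSO at 2 h. Without replicate 3 of DMSO at 2 h and replicate 1 of recovery, 59 members were higher at 2 h and 115 at 12 h. The rule found 89 members at a vehicle limit of 0.25 CPM, 59 at a drug limit of 4 CPM, 75 where every library had to meet it, 135 with TMM-scaled CPM and 128 to 151 with a 6 h library left out. With DMSO at 12 h as the vehicle, 18 members were higher and 15 lower in recovery, against 18 and 22 with DMSO at 2 h, so the balance between them turned. The recovery log2 difference from that vehicle was 1.02 for Adra1b, 0.97 for Diras2, 0.57 for Fads6, 1.84 for Fat2, 2.69 for Tceal7 (no count in that vehicle, so no bound), -0.71 for Ccl5 and -1.44 for Ifit3. Of the named genes' values in these comparisons under the alternatives, 474 of 495 kept their call at 12 h, 284 of 299 at 2 h, 612 of 624 for recovery against thapsigargin at 12 h, 332 of 378 for recovery against DMSO at 2 h and 278 of 357 for the change in response. With total-count scaling the median log2 difference of all genes was 0.17 at 2 h (-0.04 with TMM) and -0.37 for recovery against thapsigargin at 12 h (-0.05 with TMM), and the share of all calls that were higher at 2 h was 90.7% with it and 66.5% with TMM. Deviations of same-numbered replicates had correlations of -0.12 to -0.008 at 2 h and -0.092 at 12 h. For recovery they were -0.423 to -0.369 with thapsigargin at 12 h and -0.152 to 0.199 with DMSO at 2 h. In groups of 2 libraries the deviations mirror each other, so different numbers gave 0.092 at 12 h. With 2 or 3 libraries a group, such correlations cannot show whether the numbers pair the samples. For thapsigargin at 12 h the replicate numbers rest on the sample titles, replicates 1 and 2, where the deposited files carry the numbers 2 and 3. With the replicate number as a block, 39 members were higher at 2 h, 96 at 12 h, 28 had a larger and 2 a smaller response, 116 were lower in recovery than in thapsigargin at 12 h, and 16 were higher and 22 lower in recovery than in DMSO at 2 h. The cause of these shifts was not tested. At these depths 1 count is worth 0.0244 to 0.0578 CPM, so levels of silent genes rest on few counts.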
